A study of Homo sapiens with 6 samples.

Results

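The genes described here are 10 transcription factor genes of the primitive streak, the presomitic mesoderm and other mesoderm. They are T, EOMES, MIXL1, GSC, MESP1, TBX6, MSGN1, MESP2, MEOX1 and TBX3, chosen by symbol out of the 27672 genes of the expression table. T is the table's symbol for the gene now named TBXT, which encodes Brachyury. Polyadenylated RNA was sequenced from H9 cells, an established human embryonic stem cell line, at day 0 (hESCs, 3 libraries) and in neuromesodermal progenitor-like cells made from them (NMP-L, day 3, 3 libraries). The labels give the day 0 cells as untreated, kept without feeders in DEF medium with bFGF at 30 ng/ml and Noggin at 10 ng/ml. NMP-L cells received bFGF at 20 ng/ml together with CHIR99021 at 3 µM, an inhibitor of GSK3 that activates Wnt signalling. Both conditions are the same cell line, and the labels name no genetic change. The methods of the study add the BMP inhibitor Noggin and the TGFβ receptor inhibitor SB431542 from day 2 of the whole protocol, thus before day 3. The labels of the day 3 libraries name neither agent. Those methods also keep hESCs in TESR medium, unlike the DEF medium with Noggin of the labels. The comparison of day 3 with day 0 addresses which of these mesoderm factors the progenitor-like cells carry.

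The primitive streak is the region of the gastrulating embryo through which epiblast cells leave the epithelium to become mesoderm and endoderm. Wnt and Nodal signals induce T-box and homeobox factors there, and cells that go on to paraxial mesoderm switch on TBX6 and MSGN1 in the presomitic mesoderm before MESP2 and MEOX1 mark segmentation and somites. Neuromesodermal progenitors sit beside the node and streak, carry T together with the neural factor SOX2, and can form either spinal cord or paraxial mesoderm.

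RefSeq promoter sequences were found for 7 of the 10 genes (T, EOMES, MIXL1, GSC, TBX6, MSGN1 and MESP2), at 8 start sites since T has a pair of them. The 250 bases before each start were searched on both strands for the letters CTTTGA, the core bound by TCF/LEF factors, which carry the Wnt signal to DNA. These letters were present at 3 of the 8 start sites, and 11.2% of all 35116 promoters held them. The genes were T, MIXL1 and MSGN1, and the motif began 87, 76 and 85 bases before the start. The T-box site letters GGTGTGA were present at 0 of the 8 (2.76% of all promoters) and the FOXH1 site AATCCACA, bound by a partner of the Nodal effectors, at 2 of the 8 (0.709%), in MIXL1 and MESP2. No matches overlapped each other, and a match of letters is a description of the window and not evidence of binding. The sequences with the TCF/LEF letters are shown because CHIR99021 activates Wnt signalling, with the matched letters in capitals and every sequence written 5′ to 3′ on the strand of the gene. They were placed on GRCh37 by exact match, at chr6:166581340-166581589 (minus strand) for T, chr1:226411115-226411318 (plus strand) for MIXL1 and chr2:17997477-17997726 (plus strand) for MSGN1. Distances are counted from the RefSeq start, which for MIXL1 lies inside the annotated gene, and its sequence is shown up to the annotated start. The capitals at the left end of the MIXL1 sequence are the FOXH1 site on the reverse strand.
T: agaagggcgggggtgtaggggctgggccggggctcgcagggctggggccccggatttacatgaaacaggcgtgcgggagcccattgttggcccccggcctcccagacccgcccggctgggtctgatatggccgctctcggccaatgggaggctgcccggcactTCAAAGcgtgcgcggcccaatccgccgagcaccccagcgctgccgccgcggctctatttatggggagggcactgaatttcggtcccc
MIXL1: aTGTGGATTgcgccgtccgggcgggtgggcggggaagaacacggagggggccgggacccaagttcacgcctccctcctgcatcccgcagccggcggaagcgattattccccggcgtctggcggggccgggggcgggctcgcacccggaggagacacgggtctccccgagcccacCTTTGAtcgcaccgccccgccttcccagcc
MSGN1: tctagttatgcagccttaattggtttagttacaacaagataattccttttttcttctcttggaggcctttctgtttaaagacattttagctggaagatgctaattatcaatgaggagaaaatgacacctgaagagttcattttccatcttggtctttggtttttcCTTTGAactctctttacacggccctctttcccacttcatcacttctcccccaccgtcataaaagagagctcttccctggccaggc
The T window lies inside the annotated span of the gene, because its other start is further upstream, and gene-level counts do not show which start was used.

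The libraries held between 19454543 and 23036426 expected counts, which are RSEM's estimates of reads per gene. Expected counts were compared with edgeR's quasi-likelihood test after TMM scaling, with Benjamini-Hochberg adjustment over the 15517 genes tested. The 3 libraries of each condition are labelled biological replicates, and no source says how separate their cultures were, so that the p-values measure only the spread between these libraries. The pluripotency factor POU5F1 was at 1099 to 1157 TPM in NMP-L against 1942 to 2068 TPM in hESCs, and NANOG at 15.9 to 17.2 against 86.1 to 98.7 TPM, where TPM is the transcript level per length.

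Of the 10 genes, 6 passed the expression filter, and T, EOMES and MIXL1 rose while TBX6 and TBX3 fell in NMP-L cells, although the TBX3 call was lost in 12 of 17 alternatives. MESP2 did not pass the threshold, and GSC, MESP1, MSGN1 and MEOX1 were too low to be tested. The 5 genes called compare with 55.8% of all genes tested, of which 29.1% were higher and 26.7% lower in NMP-L, and 9.38% and 9.18% changed by at least 2-fold upwards and downwards. T and EOMES passed the filter through the NMP-L libraries alone, so their calls follow in part from the filter, and only 3 of the 10 genes (TBX6, MIXL1 and TBX3) had 10 counts in every library. The NMP-L libraries lay above all hESC libraries in 5 of the 10 genes (T, EOMES, MIXL1, MSGN1 and, by a near tie, MESP1), as did 32.1% of the genes tested and 26.4% of the 20912 genes with any count. In bulk RNA a larger share of cells with a transcript and more of it per cell cannot be told apart. Every count of the 10 genes was a whole number, whereas 8.44% of all genes had a fractional count from reads shared between genes.

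**Figure D1:**
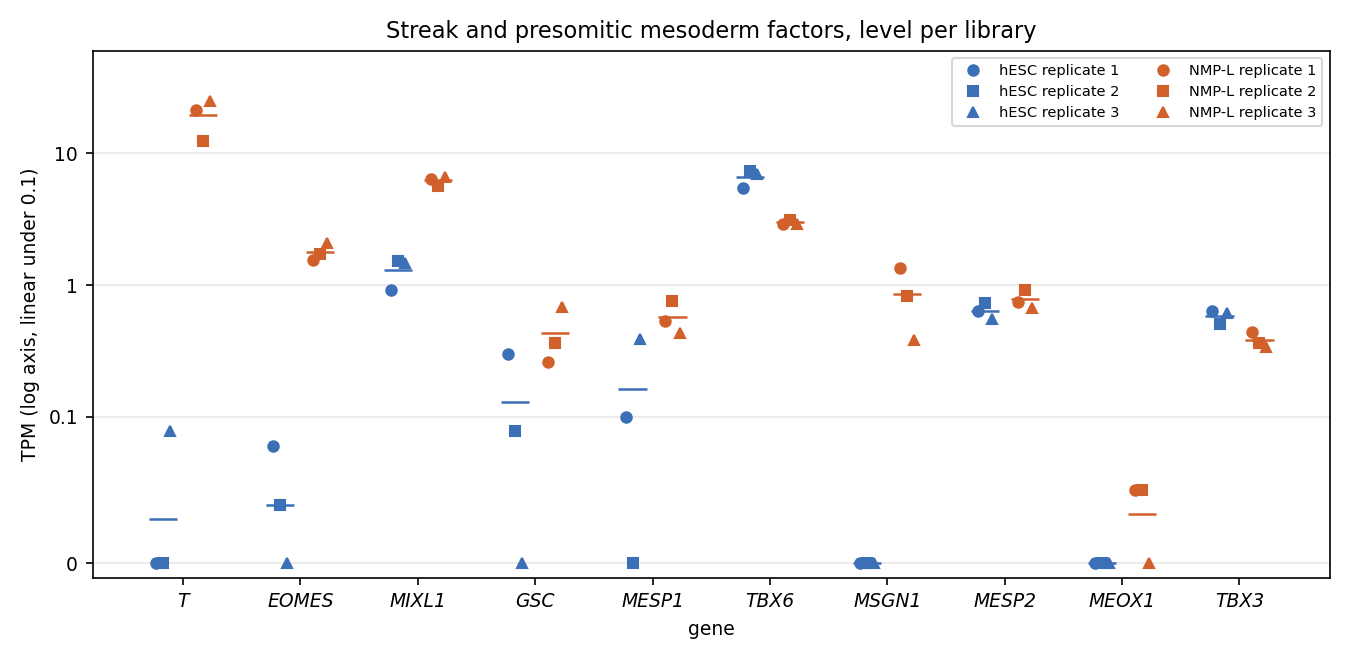
Level of each of the 10 genes in TPM (transcript level per length; log axis, linear under 0.1) in the 3 hESC libraries (blue) and 3 NMP-L libraries (orange), with a bar at each mean. T reached 12.5 to 25.1 TPM in NMP-L from at most 0.09 in hESCs, TBX6 was lower in NMP-L, and MESP2 and GSC overlapped between the conditions.

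Of the 4 streak factors, T, EOMES and MIXL1 rose and GSC was too low to be tested. T, the T-box factor that defines the streak and later the notochord (chromosome 6, 166571144 to 166582188 on GRCh37), was counted 0, 0 and 2 times in hESCs, and 537, 293 and 629 times in NMP-L. The hESC libraries were all at or under 3 counts, the amount taken as the detection floor, and every NMP-L library was far above them. With only 2 counts in hESCs the ratio of summed counts was 622-fold, with an exact 95% interval from 172 to 5145 that covers counting error only (edgeR adjusted p = 5.7e-08). A long noncoding RNA, LNCDAT, overlaps T on the opposite strand, and no source says that strand was used in counting. EOMES, a T-box factor of the anterior streak that also primes definitive endoderm (chromosome 3, 27757440 to 27764202), had hESC counts of 2, 1 and 0 and NMP-L counts of 46, 48 and 64. The conditions did not overlap, the ratio was 44.9-fold (exact 95% interval 15.1 to 220.2, counting error only), and edgeR's adjusted p was 2.7e-06. The fitted log2 fold change of EOMES was 5.33, and it was 6.19 without hESC replicate 1 and 4.79 without hESC replicate 3.

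MIXL1, a paired-type homeobox factor of the streak (chromosome 1, 226411319 to 226414761), was already detected in hESCs. It had 16, 29 and 27 counts there and 131, 109 and 137 in NMP-L, so the lowest NMP-L library lay well above the highest hESC library. The log2 fold change was 2.15 (standard error 0.21, edgeR adjusted p = 6.2e-06), and MIXL1 had more than 10 counts in every library of both conditions. GSC, the homeobox factor of the organiser and anterior streak (chromosome 14, 95234560 to 95236450), had hESC counts of 3, 1 and 0 and NMP-L counts of 3, 4 and 8. The conditions overlapped, and a two-sided exact permutation test of log2 CPM (counts scaled to library size) gave p = 0.2, where 0.1 is the smallest value that 3 libraries against 3 allow.

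MESP1, a bHLH factor of nascent and cardiac mesoderm (chromosome 15, 90293106 to 90294480), had hESC counts of 1, 0 and 4 and NMP-L counts of 6, 8 and 5. The lowest NMP-L library had 5 counts against 4 in the highest hESC library, which after scaling was a near tie (0.2089 against 0.2087 CPM). The ratio was 3.24-fold (exact 95% interval 1.17 to 11.1, counting error only). With no filter beyond 1 count in total, edgeR gave MESP1 an adjusted p of 0.12.

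Of the 3 presomitic factors, TBX6 fell, MESP2 did not pass the threshold and MSGN1 was too low to be tested. TBX6, the T-box factor that commits cells to paraxial mesoderm at the expense of neural fate (chromosome 16, 30097114 to 30103245), had hESC counts of 86, 126 and 113 and NMP-L counts of 53, 54 and 54. It was thus detected in undifferentiated cells, and every NMP-L library was lower than every hESC library, as in 29.5% of genes tested. The log2 fold change was -1.24 (standard error 0.18, edgeR adjusted p = 1.3e-04). The neighbouring gene YPEL3 lies 390 bases from TBX6 on the same strand and was also lower, from 16.4 to 5.09 CPM (log2 fold change -1.69, edgeR adjusted p = 2.2e-06), and its part in the TBX6 value was not tested. PPP4C, 417 bases away on the opposite strand, went from 112.1 to 95.0 CPM with a log2 fold change of -0.24 (edgeR adjusted p = 0.033).

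MSGN1, a bHLH factor of the presomitic mesoderm that acts beside TBX6 (chromosome 2, 17997727 to 17999065), had 0 counts in all 3 hESC libraries and 7, 4 and 2 in NMP-L. Its summed NMP-L level was 3.70-fold that of 3 counts over the 3 hESC libraries together. That reference is lower than the floor of 3 counts in each library, and the ratio does not cover counting error. The exact permutation test gave p = 0.1, and with no filter beyond 1 count in total edgeR's adjusted p was 0.015. MESP2, the bHLH factor that sets the next somite boundary (chromosome 15, 90303822 to 90321985), had hESC counts of 9, 11 and 8 and NMP-L counts of 12, 14 and 11. The conditions overlapped after scaling. The log2 fold change of 0.18 (standard error 0.35, edgeR adjusted p = 0.70) had a 95% interval from -0.58 to 0.93, so a rise of nearly 2-fold could not be told from none at this depth. MEOX1, a homeobox factor of somites (chromosome 17, 41717757 to 41739290), had 0 counts in each hESC library and 1, 1 and 0 in NMP-L, and was therefore at or under the floor throughout.

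TBX3, a T-box factor of limb, heart and extraembryonic mesoderm that is also present in some pluripotent cells (chromosome 12, 115108060 to 115121980), had hESC counts of 27, 24 and 27 and NMP-L counts of 22, 17 and 17. After scaling, the NMP-L libraries were all lower than the hESC libraries, as in 29.5% of genes tested. The antisense gene TBX3-AS1 overlaps it on the opposite strand. The log2 fold change was -0.70 (standard error 0.26, edgeR adjusted p = 0.039). Among the alternatives that lost this call, edgeR's adjusted p was 0.076 when replicate number was entered as a block. It was also lost without any single hESC replicate, without NMP-L replicate 2 and without NMP-L replicate 3, where the adjusted p lay between 0.057 and 0.13.

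**Figure D2:**
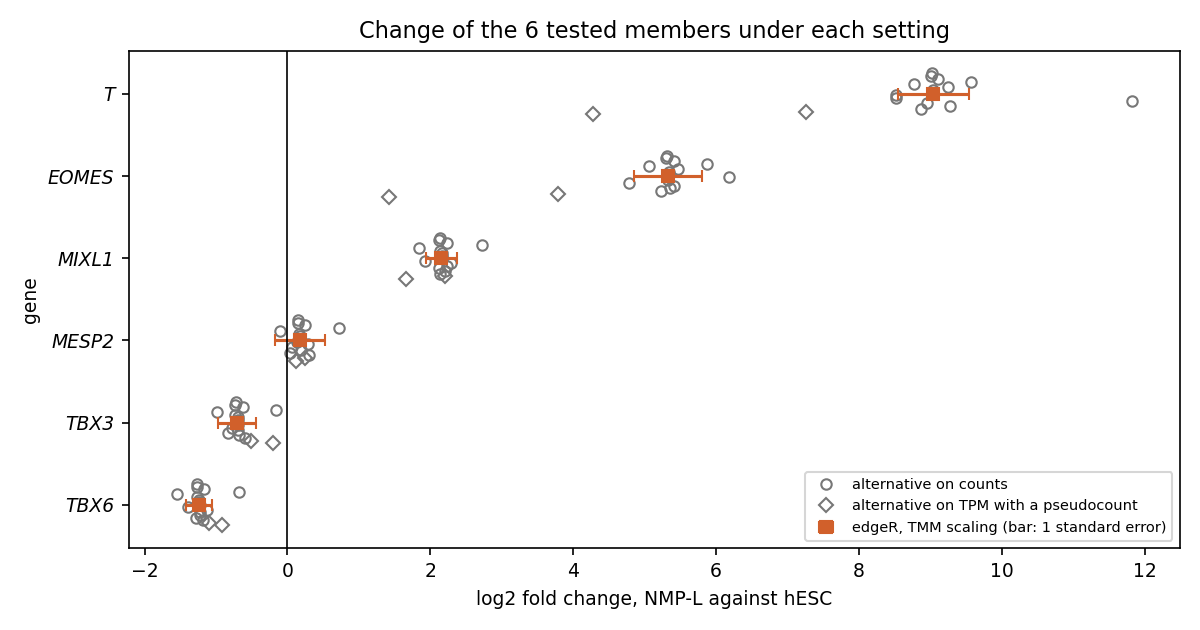
Log2 fold change of the 6 tested genes (NMP-L against hESC, linear axis) by edgeR with TMM scaling (filled squares, bars of 1 standard error), under alternatives on counts (open circles) and on TPM with a pseudocount (diamonds). T, EOMES and MIXL1 stayed above 0 and TBX6 and TBX3 below it in every setting, while MESP2 lay on both sides of 0.

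Levels of different genes were compared per length, in TPM. In NMP-L, T was highest at 19.6 ± 6.50 TPM (SD, n = 3), followed by MIXL1 at 6.25 ± 0.51, TBX6 at 2.99 ± 0.13 and EOMES at 1.79 ± 0.28. The ranges of these 4 genes did not overlap. MSGN1 (0.38 to 1.35 TPM), MESP2 (0.67 to 0.92), MESP1 (0.43 to 0.75), GSC (0.26 to 0.68) and TBX3 (0.34 to 0.44) followed, each with a range that overlapped its neighbour in this order. In hESCs the order was different, with TBX6 first at 6.59 ± 1.01 TPM, MIXL1 at 1.3 ± 0.34, MESP2 at 0.64 ± 0.09 and TBX3 at 0.58 ± 0.06, and the ranges of the last pair overlapped. MESP1 (at most 0.39 TPM), GSC (at most 0.30), T (at most 0.09) and EOMES (at most 0.08) had ranges that reached 0 there, and MSGN1 and MEOX1 were at 0 throughout. In TPM, T stood at 5.62% to 9.08% of SOX2 in the NMP-L libraries, TBX6 at 11.7% to 25.2% of T, and MSGN1 at 1.51% to 6.58% of T. T ranked 6638 and MIXL1 10573 among the 20162 genes with a TPM above 0 in NMP-L.

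T also varied more between NMP-L libraries than genes of like level. Its levels were 24.1, 14.0 and 26.3 CPM in NMP-L replicates 1, 2 and 3, so that replicate 2 lay well under the others. The coefficient of variation was 30.6%, larger than that of 99.6% of the 4870 tested genes with an NMP-L mean within 2-fold of T, whose median was 8.55%. The variance of the T counts was 43.4 times what counting alone gives. For MIXL1 (6.40%), EOMES (13.2%), TBX6 (6.67%), TBX3 (16.8%) and MESP2 (18.9%) the variation was below the median of genes at their level, and their counts varied no more than counting alone gives. Without NMP-L replicate 2 the log2 fold change of T was 9.27, and without hESC replicate 3, which holds both hESC counts of T, it was 11.82. The fitted value of 9.04 rests on those few counts and on the prior count of the fit.

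Other genes of streak and caudal tissue also had their lowest level in NMP-L replicate 2. Of the 23 genes that were higher in NMP-L among the 10 genes and the lists of T-box, streak, presomitic and caudal epiblast genes described below, 16 were lowest in replicate 2 (69.6%), beside 26.0% of all 4512 genes called higher and 34.4% of the 1455 genes higher by at least 2-fold. FOXA2, a streak and node factor, had 473, 264 and 535 counts, and CDX2, a caudal homeobox factor, had 522, 326 and 607. HES7, an oscillator of the segmentation clock, had 50, 24 and 66. The other 7 were lowest in replicate 1 (EOMES, TBX15 and WNT8A) or replicate 3 (FOXH1, CDH11, HES3 and CDX4). The look was prompted by the values of T, which is among the 16, and the genes were singled out after their values were seen.

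**Figure D3:**
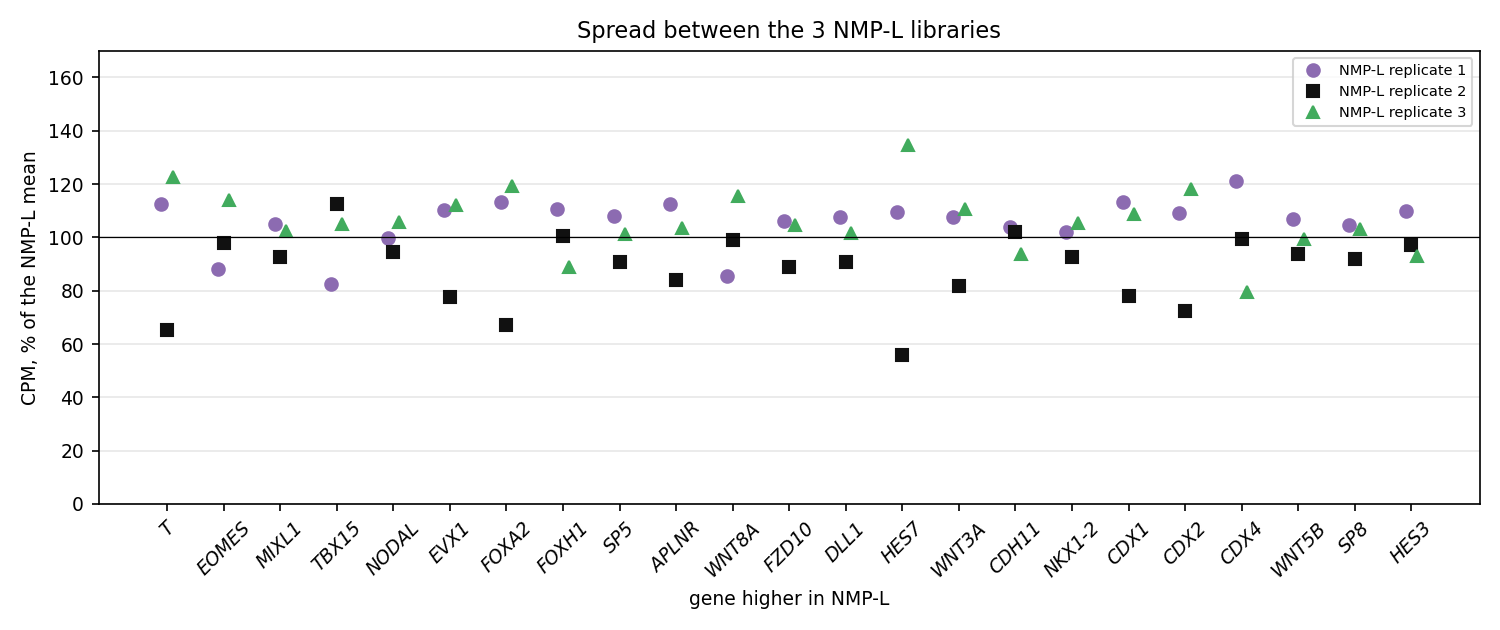
CPM of each of the 23 genes in the 3 NMP-L libraries, as a percentage of the gene's NMP-L mean (points, 1 per library, linear axis from 0). Replicate 2 (black squares) lies lowest for 16 of the 23, furthest under the mean in HES7, T, FOXA2 and CDX2, and is not lowest in the other 7.

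The T-box family shares the DNA-binding domain of T, TBX6, EOMES and TBX3. Of its 13 other genes, 6 were at or under 3 counts in all libraries, and 4 were tested, of which 1 rose and 1 fell. TBX15, known from craniofacial, limb and muscle development, had 1, 0 and 1 counts in hESCs and 60, 77 and 82 in NMP-L. The conditions were far apart, with a ratio of 93.4-fold (exact 95% interval 25.6 to 776, counting error only) and an edgeR adjusted p of 4.9e-07. TBX15 passed the filter through the NMP-L libraries alone, so this call follows in part from the filter. At 2.01 ± 0.34 TPM (SD, n = 3) TBX15 in NMP-L overlapped EOMES in range. TBX1, of pharyngeal mesoderm, had 104, 119 and 137 counts in hESCs and 66, 49 and 64 in NMP-L, a log2 fold change of -1.24 (standard error 0.17, edgeR adjusted p = 8.2e-05). TBX19 overlapped between the conditions (log2 fold change -0.53, edgeR adjusted p = 0.23), with 29, 19 and 22 counts in hESCs and 29, 11 and 17 in NMP-L, and without NMP-L replicate 1 the list had 2 genes lower in place of 1. MGA, the family member that also dimerises with MAX, was at 21.8 ± 2.89 TPM in hESCs and 23.2 ± 2.03 TPM in NMP-L (log2 fold change 0.00, edgeR adjusted p = 0.97). TBX22 had 1 count in each hESC library and 4, 2 and 7 in NMP-L, while TBX5 (0, 0 and 0 against 7, 0 and 1) and TBX20 (0, 2 and 0 against 1, 6 and 1) overlapped.

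**Figure D4:**
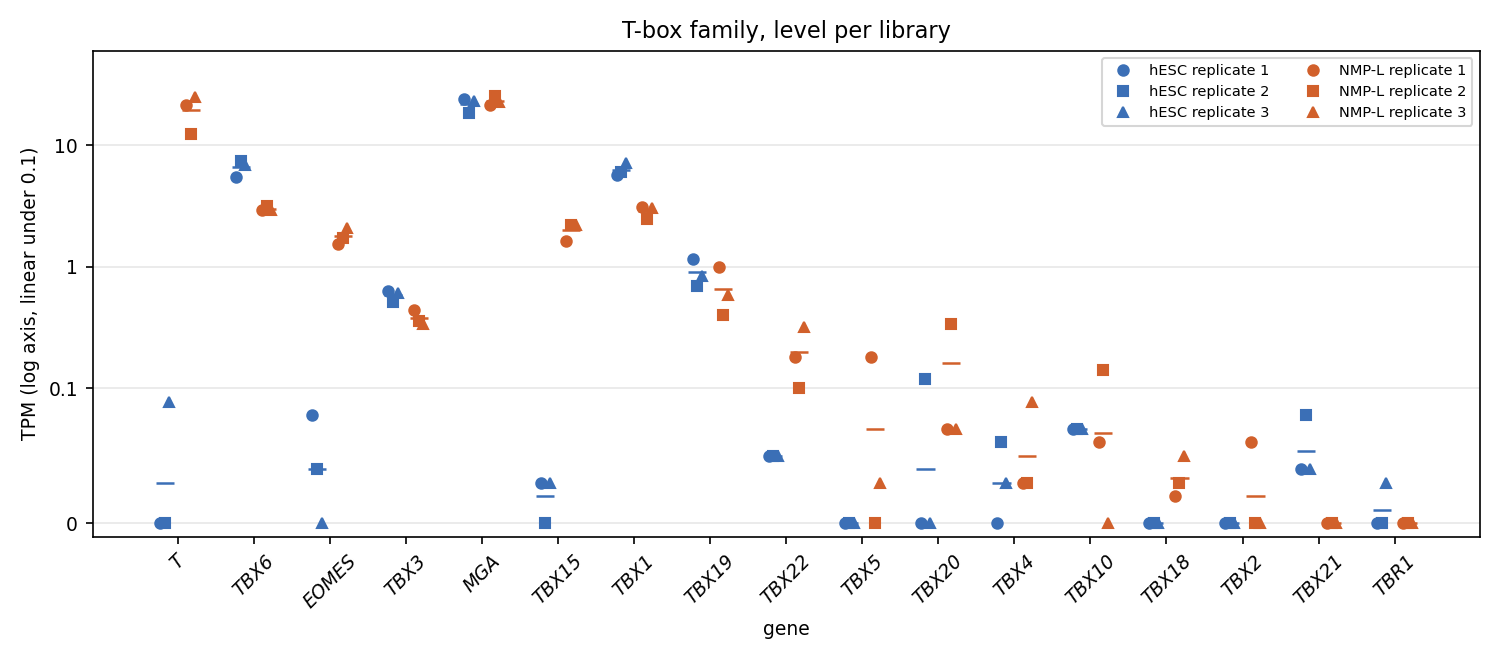
Level of the 17 T-box genes in TPM (log axis, linear under 0.1) in the 3 hESC (blue) and 3 NMP-L (orange) libraries, with a bar at each mean. T, EOMES and TBX15 were at or near 0 in hESCs and at 1.55 TPM or more in every NMP-L library, and MGA was at like levels in both.

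Among 15 other streak genes, 13 were tested, 8 rose and 2 fell, beside 29.1% higher and 26.7% lower over all genes tested. Their median log2 fold change was 2.28 beside 0.03 over all genes tested. EVX1, APLNR, FOXA2, SP5 and WNT8A passed the filter through the NMP-L libraries alone, and FZD10 (10, 11 and 6 counts in hESCs) needed them to pass. FGF4, which fell, passed it through the hESC libraries alone. The calls of these genes and this median therefore follow in part from the filter. EVX1, a homeobox factor of the posterior streak, had 0 counts in each hESC library and 65, 43 and 71 in NMP-L (edgeR adjusted p = 3.7e-06). Its summed NMP-L level was 50.9-fold that of 3 counts over the hESC libraries together, counting error not covered. APLNR, a receptor of mesoderm leaving the streak, went from 1, 4 and 5 counts to 191, 134 and 189 (log2 fold change 5.40, standard error 0.31, edgeR adjusted p = 8.2e-08). NODAL, the TGFβ family ligand that induces the streak, rose from 2.45 ± 0.33 to 12.5 ± 1.06 TPM (SD, n = 3 each, log2 fold change 2.28, edgeR adjusted p = 2.5e-07). FOXA2, SP5, FZD10, WNT8A and FOXH1 also rose. FGF4 and GDF3, growth factor genes of pluripotent cells, were the pair that fell, while WNT3, LHX1 and SNAI1 did not pass the threshold, and CER1 was at or under the floor throughout. FGF8, a ligand of the streak and tail bud, was not tested and had 4, 11 and 7 counts in hESCs against 3, 2 and 1. It was lower in every NMP-L library, as were 24.5% of genes with any count. The closest libraries had 4 and 3 counts, near the floor. When 10 counts were required in every library, 2 of the list rose and 1 fell, since most of the genes that rose were low in hESCs.

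Among 18 other presomitic and somite genes, 9 were tested, 4 rose and 4 fell, with a median log2 fold change of 0.49. Over all genes tested 29.1% were higher and 26.7% lower. The rises were in HES7 and WNT3A, and more weakly in DLL1 and CDH11. HES7 had 2, 0 and 0 counts in hESCs, and its ratio of summed counts was 59.7-fold (exact 95% interval 16.2 to 498, counting error only, edgeR adjusted p = 3.3e-05). The HES7 call follows in part from the filter, which it passed through the NMP-L libraries alone. WNT3A, a Wnt ligand of the tail bud, had 6, 13 and 3 counts in hESCs and 85, 61 and 94 in NMP-L, with a log2 fold change of 3.19 (edgeR adjusted p = 1.5e-05). WNT3A also needed the NMP-L libraries to pass the filter, so its call follows in part from the filter. DLL1, a Notch ligand, rose by 0.86 and the adhesion gene CDH11 by 0.49 on the log2 scale (edgeR adjusted p = 1.1e-04 and 0.0082). Relative to HPRT1 counts 3 of the list rose in place of 4, and with 10 counts required in every library 2 did.

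The falls in the same list were in TCF15, DLL3, LFNG and PDGFRA. TCF15, the somite bHLH factor, had 86, 113 and 96 counts in hESCs and 36, 29 and 24 in NMP-L (log2 fold change -1.95, edgeR adjusted p = 1.5e-05). The Notch pathway genes LFNG and DLL3 had log2 fold changes of -1.44 and -1.25, and the mesoderm receptor PDGFRA one of -1.53, all past the threshold. RSPO3, a secreted activator of Wnt signalling, did not pass the filter, with 0 counts in each hESC library and 19, 8 and 61 in NMP-L. FOXC1 did not pass the threshold (log2 fold change 0.57, edgeR adjusted p = 0.14). The somite genes FOXC2 (8, 4 and 10 counts against 0, 0 and 1) and RIPPLY2 (3, 6 and 9 against 1, 2 and 0) were not tested. Both were lower in every NMP-L library, as were 24.5% of genes with any count. MEOX2 had 2, 1 and 5 counts in hESCs and none in NMP-L, and RIPPLY1, PAX3, UNCX and TBX18 were at or under the floor throughout.

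Of 14 caudal epiblast genes, 13 were tested, 10 rose and 2 fell, beside 29.1% higher and 26.7% lower over all genes tested. Their median log2 fold change was 2.06, and CDX1, CDX2, SP5 and WNT8A passed the filter through the NMP-L libraries alone. WNT3A also needed the NMP-L libraries to pass, while CYP26A1 and FGF17, which fell, needed the hESC libraries. The calls of these genes and the median therefore follow in part from the filter. CDX2 had 0, 1 and 0 counts in hESCs, and NKX1-2, a homeobox gene of the caudal epiblast, rose from 5.19 to 6.68 TPM in hESCs to 24.5 to 29.8 TPM in NMP-L (log2 fold change 2.06, edgeR adjusted p = 4.8e-07). CDX1, SP5, WNT5B, WNT3A and WNT8A also rose. CYP26A1 fell steeply, from 315, 267 and 345 counts in hESCs to 12, 6 and 3 in NMP-L (log2 fold change -5.665, edgeR adjusted p = 2.0e-08). FGF17 fell by -2.89 on the log2 scale (edgeR adjusted p = 5.4e-06). FGF8, untested and also on this list, was lower in every NMP-L library, as were 24.5% of genes with any count. With 10 counts required in every library 5 of the list rose. SOX2 was at 208 to 235 TPM in hESCs and 222 to 278 TPM in NMP-L.

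**Figure D5:**
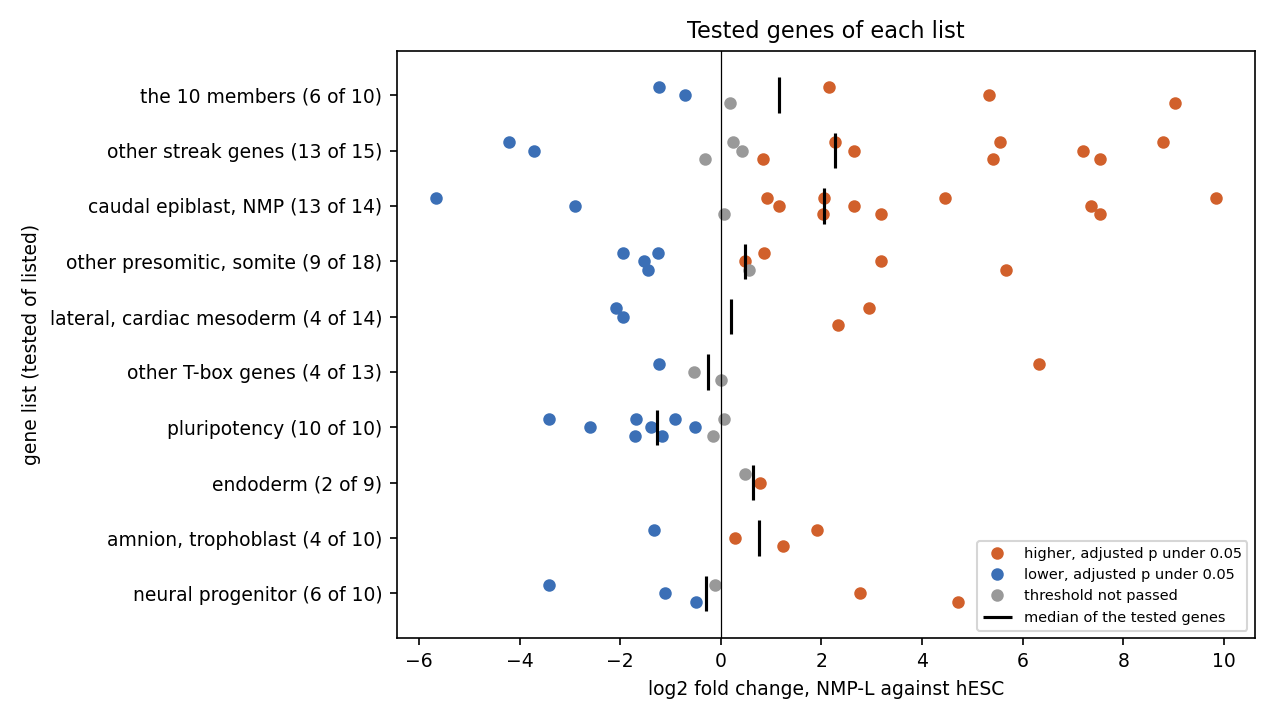
Log2 fold change (NMP-L against hESC, linear axis) of each tested gene of the 10 lists, coloured by call, with a black bar at the median of the tested genes. The lists share some genes (SP5 and WNT8A in streak and caudal, WNT3A in caudal and presomitic), and several genes with the highest values are at or near 0 in hESCs. Among the other presomitic and somite genes 4 rose and 4 fell.

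Genes of other tissues were counted in the same way, beside the 29.1% higher and 26.7% lower over all genes tested. TWIST1, SNAI2 and HES5 below passed the filter through the NMP-L libraries alone, and SOX1 needed them to pass. SIX3, which fell, passed it through the hESC libraries alone. The calls of these genes follow in part from the filter. Of 14 lateral plate and cardiac genes, 4 were tested, with TWIST1 (3, 3 and 3 counts in hESCs against 24, 37 and 22) and SNAI2 (4, 1 and 2 against 14, 16 and 13) higher and KDR and BMP4 lower. HAND1, HAND2 and NKX2-5 were at or under the floor in every library. Of 9 endoderm markers, 2 were tested and HHEX rose (log2 fold change 0.78, edgeR adjusted p = 9.2e-04), while the number that rose lay between 0 and 2 over the alternatives, with 0 relative to HPRT1 counts. SOX17, the defining endoderm factor, had at most 1 count in any library, and the summed endoderm level was 6.95 to 8.68 TPM in hESCs and 10.2 to 13.9 TPM in NMP-L. HHEX made up most of that sum, at a mean of 4.43 TPM in hESCs and 8.14 in NMP-L. CXCR4, which did not pass the threshold, came next at 2.28 and 3.39 TPM. FOXA2, counted here with the streak genes and also a marker of definitive endoderm, is not in that sum and went from 0.10 ± 0.11 to 17.2 ± 5.26 TPM (SD, n = 3 each). Of 10 amnion and trophoblast markers, 4 were tested, GATA2, KRT7 and TFAP2C rose and GABRP fell, with CGA and VTCN1 at most at 1 count and summed levels of 52.8 to 59.1 against 75.3 to 78.5 TPM. TFAP2C made up most of that sum, at a mean of 41.2 TPM in hESCs and 53.5 in NMP-L. Of 10 neural progenitor markers, 6 were tested, SOX1 and HES5 rose, SIX3, OTX2 and NES fell, and the summed level was 183 to 197 against 137 to 156 TPM. NES made up most of the neural sum, at a mean of 159.7 TPM in hESCs and 122.0 in NMP-L, while SOX1 went from 0.20 to 5.94 TPM. Of 10 pluripotency markers, 8 fell (4561 to 4762 TPM summed in NMP-L against 7378 to 7712), while relative to GAPDH counts 7 fell and 2 rose. The part of cells of these types in the values of the 10 genes was not tested.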

How the data were processed

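RNA-seq of polyadenylated RNA was compared between 3 hESC and 3 NMP-L libraries, grouped by their labels. Per the file headers, the authors deposited RSEM expected counts and TPM values (scaled by transcript length). The submitters' processing notes name cutadapt 1.9.1, STAR 2.5.2a, RSEM 1.3.0, DESeq2 1.12.3 and hg19. The annotation and strand setting are not given in the sources used here. The number of unused sample columns was 0.

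Expected counts were rounded, filtered with filterByExpr (minimum count 10), scaled by TMM and tested with edgeR 4.0.16 in R 4.3.3 (glmQLFTest, adjusted p under 0.05). Standard errors are the log2 fold change divided by the square root of F. Genes too low for the filter were compared by an exact two-sided permutation of log2 CPM with a pseudocount of 0.1 (scipy 1.17.1). Ratios of summed counts use scaled library sizes and an exact binomial interval at 95%, which covers counting error only. The floor was 3 counts, 0.125 to 0.160 CPM per library. For genes with no hESC counts the ratio was taken against 3 counts summed over the hESC libraries, without an interval. On simulated data for this comparison (15517 genes), edgeR recovered 87 of 100 genes changed 2-fold and 99 of 100 changed by 2 on the log2 scale, with 16 false calls among 202. Only these genes were changed, up and down alike, from base levels averaged over both conditions. In the data 55.8% of genes were called and some were absent from hESCs, so these rates do not carry over to the data.

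Positions come from GENCODE on GRCh37, and promoters from RefSeq on GRCh38.p14, placed on GRCh37 by exact match. The members and lists were chosen with earlier results of these data known. The genes named are the 10 members, T-box genes above the floor, up to 6 called genes with the largest changes per list, presomitic and somite genes above the floor, POU5F1, NANOG, SOX2 and the 5 genes most like T. Genes named beyond these were chosen after their values were seen. An item that the rule would name is not reported here.

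Alternatives were RLE, upper-quartile and library-size scaling, counts relative to GAPDH or HPRT1, DESeq2 1.42.0, limma 3.58.1 on log2 TPM with a pseudocount of 0.1 or 1, stricter and no filtering, a replicate block, and leaving out each library.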

Additional observations from a re-analysis of the deposited data

How the results depend on the processing

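Of the 6 tested genes, T, EOMES, MIXL1 and TBX6 kept their direction and their call in each alternative that tested them (16 for T and EOMES, 17 for MIXL1 and TBX6). T ranged from 4.27 (limma on log2 TPM with a pseudocount of 1) to 11.82 (without hESC replicate 3) and EOMES from 1.42 (the same limma fit) to 6.19 (without hESC replicate 1). With 10 counts required in every library 1 member was higher, since T and EOMES are removed, and with no filter beyond 1 count in total 4 were, MSGN1 being the addition. The number of members lower was 1 in place of 2 with library size only, relative to GAPDH counts, by DESeq2, with no filter, with the replicate block and by limma with either pseudocount, each time through TBX3, and between 1 and 2 with 1 library left out. MESP2 turned to -0.11 relative to HPRT1 counts. Over all genes, 10027 were higher and 1428 lower relative to GAPDH counts and 1793 higher relative to HPRT1 counts, against 4512 and 4141. These scalings moved the median log2 fold change to 0.59 and -0.27. For the other lists, requiring 10 counts in every library left 2 streak, 2 presomitic and somite and 5 caudal epiblast genes higher.

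Both conditions carry replicate numbers 1 to 3, but no source states a pairing. Deviations of same-numbered libraries correlated at -0.37, -0.06 and -0.13 across genes, and none correlated best with its own number. With the replicate block 3 members were higher and 1 was lower, and 3916 genes were higher and 3644 lower in all. Depth limits what can be said of GSC, MESP1, MSGN1 and MEOX1, each with at most 8 counts in any library.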

Other observations

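The 5 tested genes outside the 10 whose log2 CPM followed T most closely across the 6 libraries were SPTLC3, SYT10, DYNC1I1, CSMD1 and RGS6, with Pearson r between 0.9988 and 0.9995. The 6 points fall into 2 groups, hESCs and NMP-L, and r is given as a description. CSMD1, a large complement-regulating membrane protein, had hESC levels of 0.801, 0.668 and 1.04 CPM and NMP-L levels of 12.7, 9.87 and 12.5. SYT10, a synaptotagmin, had hESC levels of 0.694, 0.720 and 0.939 CPM, and NMP-L levels of 4.22, 3.67 and 4.14. DYNC1I1, a dynein intermediate chain, differed far less, from 7.25 to 7.57 CPM in the hESC libraries to between 10.1 and 10.5 CPM in the NMP-L libraries.

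Some genes next to the 10 were also tested. LIN9, 4089 bases from MIXL1, averaged 18.4 CPM in hESCs against 22.2 in NMP-L (log2 fold change 0.28, edgeR adjusted p = 0.12). ANPEP, 6141 bases from MESP2 on the opposite strand, fell from 6.04 to 2.94 CPM (log2 fold change -1.04, edgeR adjusted p = 4.6e-04). The values of YPEL3 and PPP4C beside TBX6 are given above.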
